A study of Arabidopsis thaliana with 9 samples.

Results

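Whole rosettes of the 2 pdx3 insertion lines were compared directly with each other: pdx3-3 (line SALK_054167C) against pdx3-4 (line GK-260E03), with 3 libraries of each, which are 6 of the 9 libraries of the series. The remaining 3 libraries are wild type (Col-0), the accession of both mutants, and are given beside the alleles as a baseline. All plants were 21 days old and grew on soil in cycles of 16 hours of light and 8 hours of dark, and the libraries of a genotype were described by the submitters as biological replicates. Each library holds the polyA-selected mRNA of entire rosettes. Members are the nuclear loci with identifiers from AT1G to AT5G, without rRNA loci: 33319 of the 33602 loci counted, of which 18711 passed the filter on low counts and were tested. Each allele was 1 insertion line, so the allele and anything else that differs between the lines cannot be told apart.

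PDX3 encodes the oxidase that converts pyridoxine 5'-phosphate and pyridoxamine 5'-phosphate to pyridoxal 5'-phosphate (PLP). PLP is the cofactor form of vitamin B6, which aminotransferases, decarboxylases and many other enzymes of amino acid metabolism need. Plants also make PLP directly with the PDX1 and PDX2 proteins, and PDX3 acts in the salvage of the other phosphorylated forms. The direct comparison of 2 alleles asks how rosettes with different lesions in the same gene differ.

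Counts summed to 15912737 to 20973958 in pdx3-3, 20754721 to 21312901 in pdx3-4 and 18689726 to 21938941 in wild-type libraries. Values are given as CPM, counts brought to a common library size with TMM factors, in the order of libraries 1, 2 and 3. A gene was called when the Benjamini-Hochberg adjusted p of edgeR's quasi-likelihood test was under 0.05, and log2 fold changes are pdx3-3 over pdx3-4. Libraries 1 and 2 of pdx3-3 stood apart in loci left out here: chloroplast loci took 0.536% and 0.174% of their counts, against 0.0162% to 0.0532% in the other 7 libraries, and rRNA loci took 0.774% and 0.242%, against 0.012% to 0.0608%. The part of this in the results below was not tested, so counts are also given with pdx3-3 represented by library 3 alone, where that library is assumed to vary like the other groups. A principal component analysis of the 6 mutant libraries used the 500 genes with the highest variance among these same libraries. Over these chosen genes, component 1 held 57.2% of the variance and separated the alleles.

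PDX3 mRNA itself was lower in pdx3-3 than in pdx3-4. PDX3 (AT5G49970, chromosome 5, listed as PPOX in the TAIR10.1 annotation) had 9.2, 8.15 and 10.6 CPM in pdx3-3, against 42.6, 50.7 and 43.2 CPM in pdx3-4 and 92.5, 93.7 and 78.5 CPM in wild type (log2 fold change -2.28, SE 0.12, adjusted p = 7.86e-06). The 3 genotypes did not overlap, with pdx3-3 lowest and wild type highest. With library 3 alone for pdx3-3, the log2 fold change was -2.10. No source used here places the insertions within the gene, and a count over the locus does not tell intact from truncated transcripts.

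Of the 7 genes of vitamin B6 metabolism, all tested, 1 was higher and 1, PDX3, was lower; the background over all tested genes was 3.29% called higher and 2.92% called lower. The higher one was PDX1.2, a non-catalytic relative of the PLP synthase subunits, with 6.44, 6.68 and 6.02 CPM in pdx3-3, against 4.04, 3.88 and 4.34 CPM in pdx3-4 and 4.34, 3.17 and 3.79 CPM in wild type (log2 fold change 0.64, SE 0.13, adjusted p = 0.0172). All 3 pdx3-3 libraries exceeded all pdx3-4 libraries, but the call was lost without pdx3-3 library 2, without any single pdx3-4 library, and with pdx3-3 library 3 alone. The catalytic subunit gene PDX1.3 had 136, 140.2 and 137 CPM in pdx3-3 and 142, 137 and 145 CPM in pdx3-4 (log2 fold change -0.04, SE 0.08, adjusted p = 0.864), and PDX1.1 had 91.5, 95.2 and 98.6 CPM in pdx3-3 and 113, 111 and 114 CPM in pdx3-4 (log2 fold change -0.24, SE 0.08, adjusted p = 0.112). PDX1.1, without overlap of the alleles, was called lower in 2 of the 20 alternatives, with the 6 mutant libraries alone (edgeR adjusted p = 0.0399) and without wild-type library 2 (edgeR adjusted p = 0.0457); its adjusted p over the alternatives reached 0.732. PDX2, the glutaminase subunit, SOS4, a pyridoxal kinase, and PLR1, a pyridoxal reductase, had log2 fold changes of -0.01, -0.07 and 0.01, and none of these was called.

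Of the 18711 genes tested, 1162 were called (6.21%), 616 higher and 546 lower in pdx3-3. The higher group held the larger folds: 243 genes were at least 2-fold higher and 50 at least 2-fold lower (together 1.57% of those tested), and 50 were at least 4-fold higher and 7 at least 4-fold lower. The median absolute log2 fold change of called genes was 0.66, and the median of all tested genes was -0.01. Without overlap of the 3 and 3 libraries were 614 of the 616 higher genes and all 546 lower genes, against 28.5% of all tested genes. Lack of overlap between the alleles in a called gene is therefore no added support. The counts moved with the libraries included. Without pdx3-3 library 2 there were 305 higher and 235 lower calls, without pdx3-3 library 3 there were 397 and 348, without pdx3-4 library 2 there were 314 and 308, and without pdx3-4 library 3 there were 262 and 156. Leaving out pdx3-3 library 1 took the lower calls to 298, and leaving out wild-type library 3 gave 991 higher and 835 lower calls. With pdx3-3 library 3 alone, 321 were higher and 40 lower. Of the 101 called named genes other than PDX3, 48 were called under every alternative, and many lost the call with pdx3-3 library 3 alone.

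**Figure D1:**
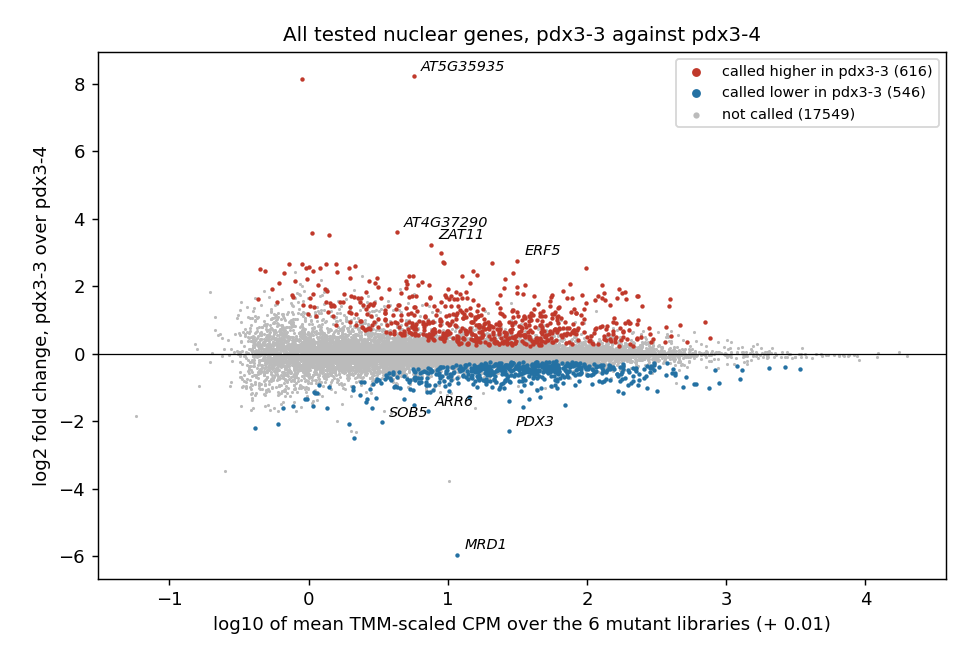
Log2 fold change of pdx3-3 over pdx3-4 (vertical axis) against log10 of the mean CPM of the 6 mutant libraries (horizontal axis) for the 18711 tested genes; each point is a gene. Of the called genes, 243 lie at least 2-fold higher and 50 at least 2-fold lower, with MRD1 the lowest point.

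Among the 15 genes with the largest folds called higher were regulators of the rapid response to stress. Naming for a large fold, in either direction, required no overlap between the libraries of the 2 alleles, so that lack of overlap is no added support. ZAT11, a zinc finger repressor, had 9.01, 12.1 and 20.1 CPM in pdx3-3, against 1.56, 1.42 and 1.42 CPM in pdx3-4 and 0.37, 0.24 and 0.16 CPM in wild type (log2 fold change 3.23, SE 0.29, adjusted p = 0.000223). ERF5, an ethylene response factor, had 54.2, 49.5 and 61 CPM in pdx3-3, against 11.2, 7.34 and 5.71 CPM in pdx3-4 and 7.4, 10.8 and 7 CPM in wild type (log2 fold change 2.76, SE 0.21, adjusted p = 0.000118). In ERF5 the pdx3-4 libraries overlapped wild type, whereas ZAT11 was higher in each pdx3-4 library than in any wild-type library. AT5G51190 (ERF105), from the same family, had 141, 180.4 and 185 CPM in pdx3-3, against 34.4, 28.2 and 24.6 CPM in pdx3-4 and 8.62, 14 and 11.2 CPM in wild type (log2 fold change 2.54, SE 0.17, adjusted p = 6.37e-05), with the 3 genotypes in separate ranges. WRKY53, a transcription factor of defence and senescence that was among the 5 smallest p-values, had 95.8, 103 and 119 CPM in pdx3-3, against 30.6, 31.5 and 24.8 CPM in pdx3-4 and 6.61, 10.1 and 7.42 CPM in wild type (log2 fold change 1.87, SE 0.14, adjusted p = 0.000108), and its genotypes also did not overlap. All 4 were called under each of the 20 alternative analyses. AT5G51190 lies inside AT5G51180 on the opposite strand, a gene at a log2 fold change of -0.02 (adjusted p = 0.895), and 23 of the 111 genes named here overlap another annotated gene in this way or in part, so their reads are uncertain.

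For ZAT11, ERF5 and WRKY53, which moved together, the 250 bases before the annotated gene start are shown 5' to 3' on the gene's strand, read from the TAIR10.1 genome, with matches to the W-box core TTGAC (bound by WRKY factors) on either strand in capitals.
ZAT11 (chr2:15706035-15706284, plus strand): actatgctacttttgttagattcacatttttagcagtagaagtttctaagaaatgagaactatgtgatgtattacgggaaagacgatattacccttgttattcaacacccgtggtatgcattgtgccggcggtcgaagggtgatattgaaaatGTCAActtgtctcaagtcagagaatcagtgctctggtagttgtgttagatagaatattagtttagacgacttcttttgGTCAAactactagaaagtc
ERF5 (chr5:19179631-19179880, plus strand): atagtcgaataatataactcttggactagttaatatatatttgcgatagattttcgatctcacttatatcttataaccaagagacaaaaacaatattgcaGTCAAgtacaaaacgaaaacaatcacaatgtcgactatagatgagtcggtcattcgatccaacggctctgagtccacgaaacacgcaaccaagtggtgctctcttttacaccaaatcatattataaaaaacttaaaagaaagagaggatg
WRKY53 (chr4:12393983-12394232, minus strand): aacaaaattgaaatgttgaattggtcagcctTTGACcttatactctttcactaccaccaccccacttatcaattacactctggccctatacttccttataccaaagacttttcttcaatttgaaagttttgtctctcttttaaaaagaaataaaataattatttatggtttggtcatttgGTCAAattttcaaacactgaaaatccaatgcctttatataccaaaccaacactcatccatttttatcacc

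ZAT11 and WRKY53 had 2 W-box cores each in this window, and ERF5 had 1. None of the 3 windows held CGCGTT (the rapid stress response element) or GCCGCC (the GCC box, bound by ERF factors), searched on both strands. Over the same window, the W-box core was present in 54.9% of 616 promoters of genes called higher and in 43% of 546 promoters of genes called lower, against 44.7% of the 18695 promoters of tested genes. CGCGTT was present in 3.41% of the higher, 2.75% of the lower and 2.91% of all promoters, and GCCGCC in 2.76% of the higher, 1.1% of the lower and 1.97% of all promoters. These shares describe letters in a window and were not tested.

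The other genes named for large folds or small p-values called higher included calcium, cell death and starch functions, and for several no role is given here. BAP1, an inhibitor of programmed cell death, had 12.7, 27.2 and 23.1 CPM in pdx3-3, against 5.75, 3.36 and 3.61 CPM in pdx3-4 and 1.43, 1.34 and 1.23 CPM in wild type (log2 fold change 2.31, SE 0.27, adjusted p = 0.00105). AT3G29000, a calcium-binding EF-hand protein, had 15.6, 31.8 and 32.8 CPM in pdx3-3, against 5.88, 5.35 and 4.88 CPM in pdx3-4 and 0.74, 1.44 and 0 CPM in wild type (log2 fold change 2.32, SE 0.36, adjusted p = 0.00444), and DESeq2 did not call it. AMY1, an alpha-amylase, had 24.1, 14.3 and 10.6 CPM in pdx3-3, against 4.27, 1.51 and 1.76 CPM in pdx3-4 and 3.01, 1.3 and 0.855 CPM in wild type (log2 fold change 2.68, SE 0.44, adjusted p = 0.00631). The pdx3-3 libraries exceeded all others in each of these genes, but AMY1 spread more than 2-fold within pdx3-3 and was not called with library 3 alone. CYP706A2, a cytochrome P450, had 26.1, 33.7 and 48.4 CPM in pdx3-3, against 6.16, 5.58 and 5.12 CPM in pdx3-4 and 0.952, 1.87 and 1.39 CPM in wild type (log2 fold change 2.68, SE 0.22, adjusted p = 0.000137). AT2G32030, of the acyl-CoA N-acyltransferase family, had 19.4, 27.2 and 29.9 CPM in pdx3-3 and 5.01, 4.59 and 4.49 CPM in pdx3-4 (log2 fold change 2.44, SE 0.21, adjusted p = 0.000167), and AT3G26470, a protein with an RPW8 domain, had 16.4, 16.4 and 20.3 CPM in pdx3-3 and 5.1, 5.54 and 4.34 CPM in pdx3-4 (log2 fold change 1.82, SE 0.13, adjusted p = 0.000108). Both stood above all pdx3-4 libraries in each pdx3-3 library. The SAUR-like gene AT3G09870 and the genes AT4G37290, AT1G35210 and AT1G30190, of no role given here, had log2 fold changes of 2.72, 3.60, 2.40 and 2.30, with adjusted p from 0.000108 to 0.00037.

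**Figure D2:**
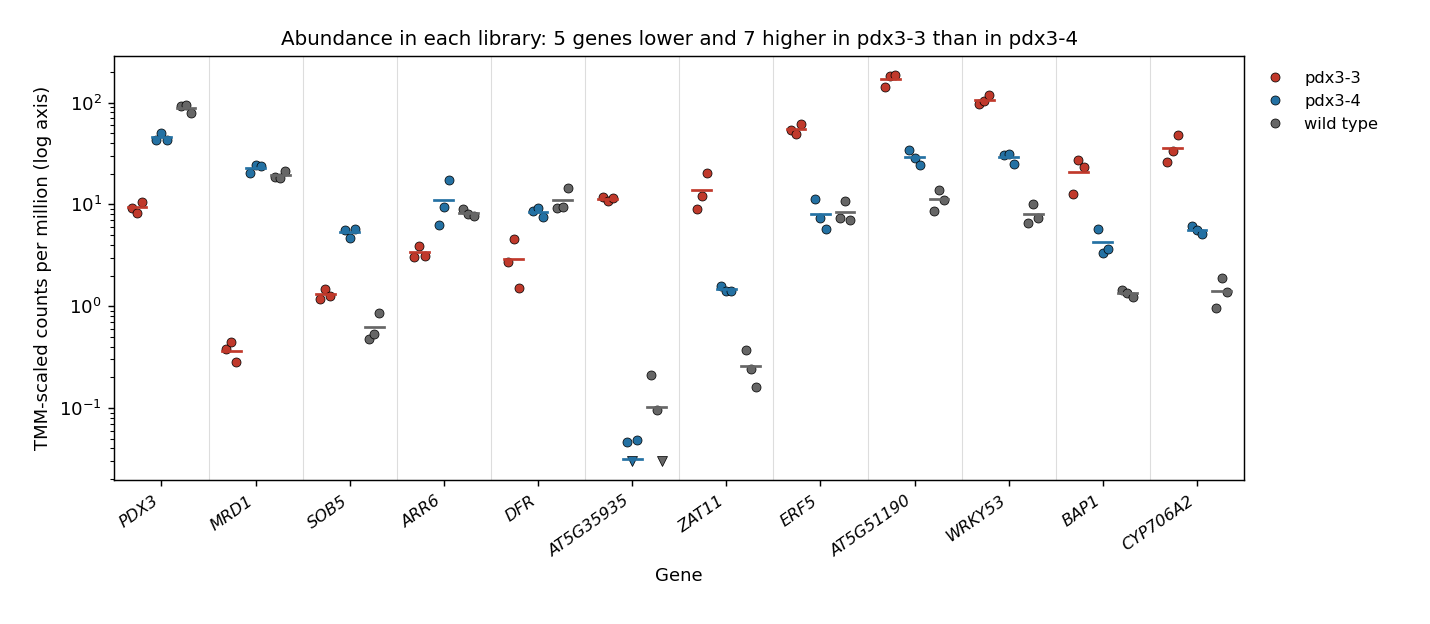
TMM-scaled CPM (log axis) of 12 named genes, with 1 point per library, pdx3-3 left, pdx3-4 in the middle and wild type right, and bars at the group mean; a triangle marks a library with no count. PDX3, MRD1, SOB5, ARR6 and DFR lie lower in pdx3-3 than in pdx3-4, and AT5G35935, ZAT11, ERF5, AT5G51190, WRKY53, BAP1 and CYP706A2 lie higher.

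The largest folds called lower, beside PDX3 and MRD1 below, included genes of cytokinin response, cell walls and pigments. SOB5, whose overexpression is known to raise cytokinin content, had 1.19, 1.47 and 1.27 CPM in pdx3-3, against 5.65, 4.68 and 5.76 CPM in pdx3-4 and 0.476, 0.528 and 0.855 CPM in wild type (log2 fold change -2.02, SE 0.20, adjusted p = 0.000343). ARR6, a type-A response regulator induced by cytokinin, had 3.06, 3.93 and 3.11 CPM in pdx3-3, against 6.3, 9.37 and 17.4 CPM in pdx3-4 and 8.99, 8.12 and 7.69 CPM in wild type (log2 fold change -1.70, SE 0.32, adjusted p = 0.0115). The alleles did not overlap in either gene. SOB5 was above all wild-type libraries in both mutants, whereas ARR6 lay below them in pdx3-3 and on both sides of them in pdx3-4. GASA1, a gibberellin-regulated peptide, had 34.1, 31.2 and 41.4 CPM in pdx3-3, against 121, 93.8 and 91.7 CPM in pdx3-4 and 68.6, 66.2 and 69.1 CPM in wild type (log2 fold change -1.52, SE 0.12, adjusted p = 0.000137). DFR, the dihydroflavonol reductase of anthocyanin synthesis, had 2.69, 4.57 and 1.51 CPM in pdx3-3, against 8.64, 9.18 and 7.46 CPM in pdx3-4 and 9.25, 9.42 and 14.4 CPM in wild type (log2 fold change -1.53, SE 0.31, adjusted p = 0.0165), and its call was lost without pdx3-4 library 2.

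Of the wall enzymes, XTH33, a xyloglucan endotransglucosylase/hydrolase, had 12.3, 17.9 and 14.9 CPM in pdx3-3, against 34.9, 35.2 and 49.9 CPM in pdx3-4 and 0.74, 0.769 and 0.588 CPM in wild type (log2 fold change -1.40, SE 0.16, adjusted p = 0.000904). BXL2, a beta-xylosidase, had 21.7, 24.7 and 34.3 CPM in pdx3-3, against 62.9, 62.3 and 70.6 CPM in pdx3-4 and 18, 16.9 and 26.8 CPM in wild type (log2 fold change -1.27, SE 0.18, adjusted p = 0.00326). In both, pdx3-3 lay below pdx3-4 without overlap, as the rule for large folds required, and in XTH33 both alleles lay far above wild type. PRXCA, a cell wall peroxidase, had 8.95, 7.86 and 8.19 CPM in pdx3-3, against 19.2, 20.9 and 20.5 CPM in pdx3-4 and 15, 18.3 and 18 CPM in wild type (log2 fold change -1.28, SE 0.10, adjusted p = 0.000108). The DnaJ-domain gene AT1G72416, the serine-rich protein gene AT5G25280, the late embryogenesis abundant protein gene AT2G41990, the noncoding RNA gene AT1G23052 and TMAC2, a regulator of abscisic acid response, had log2 fold changes of -1.34, -1.15, -1.33, -1.13 and -1.12. Of these 5, AT2G41990, AT1G23052 and TMAC2 were not called with pdx3-3 library 3 alone, nor were ARR6 and BXL2.

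Several loci differed between the alleles by presence against near absence. MRD1 (AT1G53480, TAIR10.1 chromosome 1, 19963047 to 19964712, minus strand), named for its lower expression in a mutant that accumulates methionine, had 0.375, 0.442 and 0.282 CPM in pdx3-3, against 20.3, 24.4 and 23.9 CPM in pdx3-4 and 18.6, 18.3 and 21.2 CPM in wild type (log2 fold change -5.95, SE 0.17, adjusted p = 3.45e-08). The pdx3-3 libraries summed to 21 counts, against 1446 in pdx3-4 and 1128 in wild type, and MRD1 was the gene with the smallest p of all. HEI10 (AT1G53490), a meiotic crossover factor, overlaps MRD1 by 1446 bases on the opposite strand and had 0.751, 0.442 and 0.988 CPM in pdx3-3, against 2.9, 3.03 and 3.46 CPM in pdx3-4 and 2.8, 2.64 and 2.3 CPM in wild type (log2 fold change -2.09, SE 0.25, adjusted p = 0.00109); it was chosen after its values were seen. Since the strand setting of the counting was not given, reads of the overlapping pair cannot be told apart. MSL4 on the other side, also chosen after its values were seen, had 0.313, 0.884 and 0.518 CPM in pdx3-3 and 2.07, 0.615 and 0.732 CPM in pdx3-4 and was not called (log2 fold change -0.96, SE 0.65, adjusted p = 0.471).

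AT5G35935, a pseudogene (chromosome 5, 14083388 to 14089891), was the reverse case. It had 11.8, 10.8 and 11.4 CPM in pdx3-3, against 0.046, 0 and 0.0488 CPM in pdx3-4 and 0.211, 0.0961 and 0 CPM in wild type (log2 fold change 8.23, SE 0.40, adjusted p = 5.1e-06). The sums were 651 counts in pdx3-3 and 2 in pdx3-4, a ratio of 356 with a counting interval from 98.2 to 2948 at 95%, and 6 counts in wild type. None of the 6 tested genes on either side was called. AT1G27565, chosen after its values were seen, was at 0 in all pdx3-4 libraries. Its mean in pdx3-3 was at least 12.3-fold above a floor of 3 counts per pdx3-4 library (0.1445 CPM).

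Another stretch, on chromosome 5, held 5 tested genes in a row that were all called higher. The pseudogene AT5G34800 had 7.57, 8.74 and 10.1 CPM in pdx3-3, against 1.24, 2.18 and 1.9 CPM in pdx3-4 and 1.53, 0.961 and 1.44 CPM in wild type (log2 fold change 2.32, SE 0.21, adjusted p = 0.000243), and AT5G34795 had 4.63, 4.27 and 6.35 CPM in pdx3-3, against 1.1, 0.994 and 1.12 CPM in pdx3-4 and 0.687, 1.01 and 0.908 CPM in wild type (log2 fold change 2.24, SE 0.21, adjusted p = 0.000271). Their neighbours AT5G34790, AT5G34810 and AT5G34830, named after their values were seen, had log2 fold changes of 2.05, 2.51 and 1.92. In AT5G34800 and AT5G34795 the pdx3-4 libraries stood close to wild type and the pdx3-3 libraries above both. The 5 genes lie on the plus strand between 12966080 and 12982497, and the tested genes beyond them, AT5G33382 and AT5G34871, were not called. Of all tested pseudogenes, 13 were higher and 7 lower of 214 (9.35%), against 6.21% of all tested genes. Their counts are uncertain where copies are near-identical, since the handling of reads with several matches was not given.

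AT5G11330, an FAD/NAD(P)-binding oxidoreductase on chromosome 5, was lower as a single gene, with 18.4, 16.6 and 17.2 CPM in pdx3-3, against 51.3, 52.8 and 50.7 CPM in pdx3-4 and 56.7, 60.5 and 49.4 CPM in wild type (log2 fold change -1.57, SE 0.08, adjusted p = 8.51e-06). Its pdx3-4 libraries lay among the wild-type values, and the 6 tested genes on each side were not called. Around PDX3, the gene on either side was lower: AT5G49960, annotated as an ion channel protein, had 6.75, 6.78 and 6.73 CPM in pdx3-3 and 10.3, 10.8 and 10.2 CPM in pdx3-4 (log2 fold change -0.63, SE 0.12, adjusted p = 0.0102), and AFB5, an auxin receptor F-box protein, had 57.7, 60.6 and 63.1 CPM in pdx3-3 and 74.6, 77.3 and 80.5 CPM in pdx3-4 (log2 fold change -0.36, SE 0.06, adjusted p = 0.00762). Both calls were lost with pdx3-3 library 3 alone. The next genes outward, AT5G49950, AT5G49945, AT5G49990 and AT5G50000, had log2 fold changes of 0.03, -0.15, -0.35 and -0.13, and none was called. Among the 25 tested genes on each side of PDX3, 2 of 50 were higher and 2 lower, against 3.29% higher and 2.92% lower of all tested genes.

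**Figure D3:**
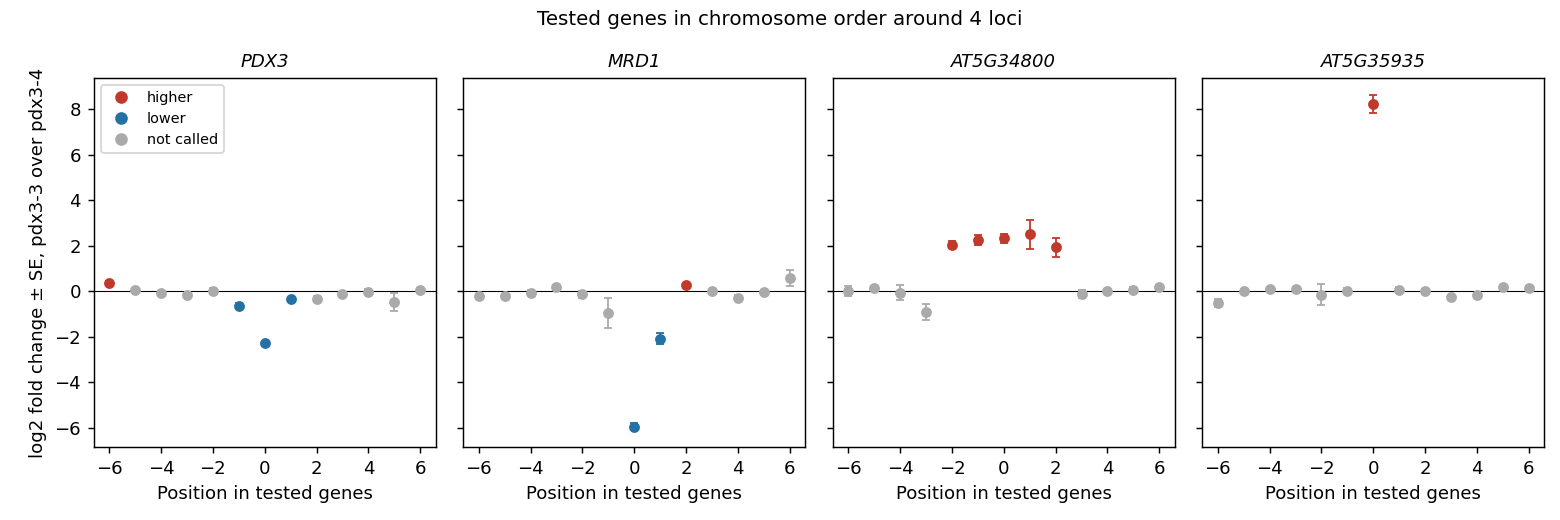
Log2 fold change of pdx3-3 over pdx3-4 with its SE (vertical axis) for the 6 tested genes on each side of 4 loci, by their order along the chromosome (horizontal axis, 0 is the named gene). MRD1 and AT5G35935 stand at -5.95 and 8.23, and 5 genes in a row around AT5G34800 lie near 2.

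By position, 5.45% to 6.84% of the tested genes of each chromosome were called. In runs of 25 consecutive tested genes, the most called were 9, reached on chromosome 1 (4 higher, 5 lower) and on chromosome 4 (9 higher). The chromosome 4 run, from AT4G23020 to AT4G23310, holds the tandem array of cysteine-rich receptor-like kinases (CRK), whose products carry extracellular cysteine-rich domains. Chosen after their values were seen, CRK6, CRK7, CRK8, CRK10, CRK11, CRK15 and CRK23 were higher, with log2 fold changes from 0.57 in CRK11 to 1.30 in CRK8. CRK7 had 15.9, 24.6 and 19.5 CPM in pdx3-3, against 10.3, 7.43 and 9.02 CPM in pdx3-4 and 1.8, 2.11 and 1.07 CPM in wild type, and CRK10 had 283, 348 and 386 CPM in pdx3-3, against 225, 246 and 199.7 CPM in pdx3-4 and 61.6, 80.2 and 64.4 CPM in wild type. The genotypes did not overlap in either gene, with pdx3-4 between pdx3-3 and wild type. Members of the array are similar in sequence, so reads may be shared between them.

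Across the 33 gene lists, 103 of 576 tested members were called, 74 higher and 29 lower (17.9%, against 6.21% of all tested genes), and 6 lists held no called member. The number called was 53 without pdx3-3 library 2, 60 without pdx3-4 library 2, 39 without pdx3-4 library 3 and 45 with pdx3-3 library 3 alone. Members named below beyond the 4 called ones with the smallest adjusted p in a list were chosen after their values were seen. The lists were chosen with earlier results of these data known, so this share describes the lists and is no evidence of its own.

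The genes that make and regulate salicylic acid, the defence hormone, and N-hydroxypipecolic acid, a mobile defence signal, were higher or not called. Of 21 tested, 9 were higher and none lower (42.9% called, against 6.21% of all tested genes). Their median log2 fold change was 0.39, against -0.01 over all tested genes. ICS1, the isochorismate synthase that starts salicylic acid synthesis, had 81.4, 74.5 and 84 CPM in pdx3-3, against 42.3, 39.1 and 47 CPM in pdx3-4 and 20, 19.2 and 14.4 CPM in wild type (log2 fold change 0.90, SE 0.11, adjusted p = 0.00146). PBS3, the enzyme that conjugates isochorismate to glutamate, had 49.5, 50.5 and 51.8 CPM in pdx3-3, against 27.2, 22.8 and 27.1 CPM in pdx3-4 and 7.03, 7.45 and 5.88 CPM in wild type (log2 fold change 0.98, SE 0.09, adjusted p = 0.000243). The genotypes were in separate ranges in both genes, lowest in wild type. Their transcription factors SARD1 and CBP60g had log2 fold changes of 1.32 and 1.43 (adjusted p = 0.00144 and 0.00236). EDS1 and PAD4, partners in immune signalling, had 0.60 and 0.73, with adjusted p of 0.00613 and 0.0102.

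Of 21 tested salicylic acid output genes, 10 were higher and none lower (47.6% called, against 6.21% of all tested genes), with a median of 0.91. PR5, a thaumatin-like antimicrobial protein, had 215, 263 and 137 CPM in pdx3-3, against 50, 46 and 54.9 CPM in pdx3-4 and 17.9, 24.7 and 12.2 CPM in wild type (log2 fold change 2.02, SE 0.25, adjusted p = 0.00138). WRKY46 had 86.9, 144 and 115 CPM in pdx3-3 and 42.3, 47.7 and 49.4 CPM in pdx3-4 (log2 fold change 1.31, SE 0.17, adjusted p = 0.00198), and NUDT6, a NADH pyrophosphatase, had 22.5, 19.7 and 20.8 CPM in pdx3-3 and 11.3, 9.32 and 10.2 CPM in pdx3-4 (log2 fold change 1.02, SE 0.11, adjusted p = 0.000882). The alleles did not overlap in these genes, as in nearly all called genes. PR1, the usual marker of the pathway, had 70.7, 159.6 and 30.3 CPM in pdx3-3, against 69.2, 15.1 and 46 CPM in pdx3-4 and 35.7, 4.04 and 0.0534 CPM in wild type and was not called (log2 fold change 1.00, SE 0.92, adjusted p = 0.62); its pdx3-3 and pdx3-4 libraries overlapped. The count of 10 fell to 4 without pdx3-3 library 2, without pdx3-4 library 2 or 3, and with pdx3-3 library 3 alone.

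Genes of pattern-triggered immunity, the response to microbial molecules at the cell surface, and of camalexin synthesis were 9 higher and 1 lower of 26 tested, with a median of 0.54. Their called share was 38.5%, against 6.21% of all tested genes. WRKY33, the regulator of camalexin synthesis, had 471, 613 and 704 CPM in pdx3-3, against 204, 222 and 149.7 CPM in pdx3-4 and 42.5, 72.2 and 51.2 CPM in wild type (log2 fold change 1.63, SE 0.21, adjusted p = 0.00168). The MAP kinase kinases MKK4 and MKK5, which act on MPK3, had 22.6, 28.1 and 30.2 CPM in pdx3-3 and 15.7, 15.6 and 15.1 CPM in pdx3-4 (log2 fold change 0.80, SE 0.11, adjusted p = 0.00278) and 21.4, 24.7 and 25.7 CPM in pdx3-3 and 13.2, 13.5 and 11.8 CPM in pdx3-4 (log2 fold change 0.90, SE 0.10, adjusted p = 0.000907). MPK3 itself and RBOHD, the NADPH oxidase of the oxidative burst, had log2 fold changes of 0.86 and 0.67. CYP81F2, which makes indole glucosinolates needed for defence, had 1.37. The lower one was WRKY29, at -1.55 (adjusted p = 0.0443), whose call was lost in 9 of the alternatives, among them each left-out mutant library. Without pdx3-3 library 2 the higher count was 5, and without pdx3-4 library 3 it was 3.

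NLR genes, the intracellular immune receptors, were 3 higher and none lower of 21 tested (14.3% called, against 6.21% of all tested genes). The 3 were RPP13, CHS1 and ADR1-L2, at 0.77, 0.85 and 0.43. The higher count was 7 with upper-quartile or library-size scaling, with DESeq2, with the 6 mutant libraries alone or without wild-type library 3, 6 without a filter on low counts, 8 without pdx3-3 library 1, and 1 without pdx3-4 library 3.

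**Figure D4:**
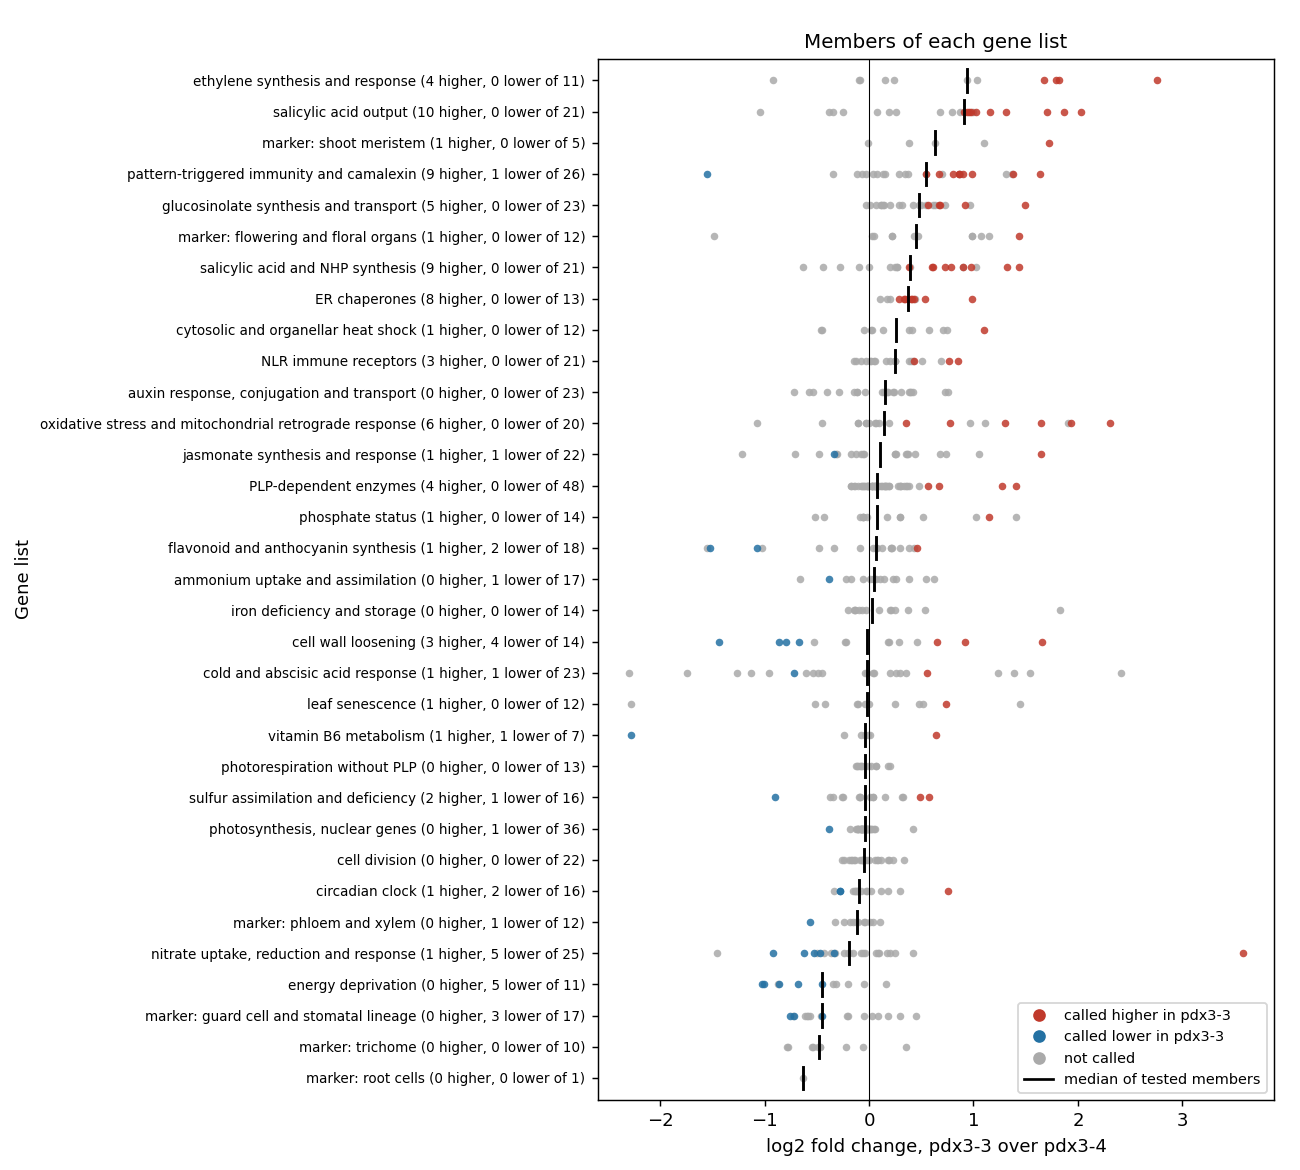
Log2 fold change of pdx3-3 over pdx3-4 (horizontal axis) of every tested member of the 33 gene lists (rows, with their counts of called members); each point is a gene and each black bar the median of the list. Ethylene, salicylic acid output and pattern-triggered immunity lists have medians of 0.94, 0.91 and 0.54, and energy deprivation and guard cell lists have medians of -0.45. Shoot meristem markers (5 tested) have a median of 0.63 and trichome markers of -0.48, and the 1 tested root marker lies at -0.63.

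In the list of ethylene synthesis and response, 4 of 11 tested genes were higher and none lower, with a median of 0.94. Their called share was 36.4%, against 6.21% of all tested genes. ACS6, an ACC synthase and itself a PLP-dependent enzyme of ethylene synthesis, had 224, 301 and 299 CPM in pdx3-3, against 101, 72.7 and 64.5 CPM in pdx3-4 and 56.8, 75.1 and 57.1 CPM in wild type (log2 fold change 1.79, SE 0.18, adjusted p = 0.000467). ERF6 had 66.4, 77.3 and 109 CPM in pdx3-3, against 28.9, 27.7 and 22.6 CPM in pdx3-4 and 4.81, 5.76 and 5.02 CPM in wild type (log2 fold change 1.68, SE 0.17, adjusted p = 0.00041), and ERF104 had 240.1, 325 and 318 CPM in pdx3-3, against 108, 74.5 and 67.7 CPM in pdx3-4 and 27.1, 40.7 and 32.1 CPM in wild type (log2 fold change 1.82, SE 0.19, adjusted p = 0.000674). With ERF5 above, these 4 were called under every alternative, and in ACS6 the lowest pdx3-3 library was more than 2-fold above the highest pdx3-4 library. The ethylene and jasmonate outputs ORA59, PDF1.2A, PR4 and PR3 had log2 fold changes of -0.09, -0.92, -0.10 and 0.94, and none was called.

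Jasmonate genes were 1 higher and 1 lower of 22 tested (9.09%, against 6.21% of all tested genes), with a median of 0.1. LOX4, a lipoxygenase, had 117, 222 and 242 CPM in pdx3-3, against 75.7, 65.7 and 44.1 CPM in pdx3-4 and 8.09, 7.3 and 5.02 CPM in wild type (log2 fold change 1.65, SE 0.27, adjusted p = 0.0058). JAZ6, a repressor of the pathway, had -0.34 (adjusted p = 0.0374), a call lost in 8 alternatives. The storage proteins VSP1 and VSP2, outputs of jasmonate, had 0.38 and -0.05 and were not called.

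Of 20 tested genes of oxidative stress and mitochondrial retrograde signalling, 6 were higher and none lower (30% called, against 6.21% of all tested genes), with a median of 0.14. The count of 6 did not leave 1.5 times this value in any alternative. OM66, an AAA-type ATPase of the outer mitochondrial membrane, had 208, 310.3 and 288 CPM in pdx3-3, against 71.1, 67.8 and 72.7 CPM in pdx3-4 and 5.66, 8.17 and 6.2 CPM in wild type (log2 fold change 1.93, SE 0.15, adjusted p = 0.000108). ZAT10, a zinc finger repressor of stress responses, had 186, 281 and 281 CPM in pdx3-3, against 98.2, 80.7 and 60.6 CPM in pdx3-4 and 20.6, 25 and 21.3 CPM in wild type (log2 fold change 1.64, SE 0.19, adjusted p = 0.000964). In both, the pdx3-3 libraries lay above pdx3-4 and these above wild type. GSTF6, a glutathione transferase, had 0.77, GSTF8 had 0.35 and ZAT12 had 1.31; BAP1 is given above.

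ER chaperones, which fold secreted proteins, were 8 higher and none lower of 13 tested (61.5% called, against 6.21% of all tested genes), with a median of 0.37 and mostly small folds. HSP90.7 had 488, 491 and 438 CPM in pdx3-3, against 359, 304 and 316 CPM in pdx3-4 and 265, 286 and 256 CPM in wild type (log2 fold change 0.53, SE 0.08, adjusted p = 0.00459). CNX1, a calnexin, had 0.43 and BIP3 had 0.98. BIP1 and BIP2, near-identical copies whose reads may be shared, had 0.34 and 0.41. The count was 4 without pdx3-3 library 1, 2 without pdx3-3 library 2 or pdx3-4 library 2, 1 without pdx3-4 library 3 and 0 with pdx3-3 library 3 alone. Cytosolic and organellar heat shock genes had 1 higher of 12, HSFB2A, a heat shock factor, with 17.8, 23.1 and 26.6 CPM in pdx3-3 and 12.2, 10.2 and 9.07 CPM in pdx3-4 (log2 fold change 1.10, SE 0.15, adjusted p = 0.00205). The called share of these heat shock genes was 8.33%, against 6.21% of all tested genes.

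Of 48 tested genes in the list of PLP-dependent enzymes, 4 were higher and none lower, with a median of 0.08, close to that of all genes. The called share was 8.33%, against 6.21% of all tested genes. ACS6, the PLP-dependent enzyme given above (log2 fold change 1.79), was counted in the ethylene list and is not part of this count. GAD1, a glutamate decarboxylase, had 7.01, 7.71 and 10.7 CPM in pdx3-3, against 4.46, 3.17 and 2.93 CPM in pdx3-4 and 1, 0.769 and 0.961 CPM in wild type (log2 fold change 1.27, SE 0.20, adjusted p = 0.00479). BCAT2, a branched-chain aminotransferase, had 4.75, 3.14 and 3.62 CPM in pdx3-3 and 1.2, 1.28 and 1.85 CPM in pdx3-4 (log2 fold change 1.40, SE 0.31, adjusted p = 0.0236). TAA1, the aminotransferase of auxin synthesis, and TSB2, a tryptophan synthase subunit, had 0.67 and 0.57. The alleles did not overlap in any of the 4, as in nearly all called genes. Leaving out pdx3-3 library 1 or 3 or pdx3-4 library 2 left 1 of them, leaving out pdx3-3 library 2 or pdx3-4 library 1 or 3 left 2, and pdx3-3 library 3 alone left 1. TSB2 was not called with upper-quartile or library-size scaling.

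Nitrate genes were 1 higher and 5 lower of 25 tested (24% called, against 6.21% of all tested genes), with a median of -0.2. The lower ones were NIA2, the main nitrate reductase, NRT1.1, a nitrate transporter and sensor, the nitrate-responsive BTB proteins BT1 and BT2, and LBD38, a repressor of nitrogen responses. NIA2 had 938, 1141 and 1205 CPM in pdx3-3, against 1558, 1457 and 1540 CPM in pdx3-4 and 1291, 1424 and 1286 CPM in wild type (log2 fold change -0.47, SE 0.09, adjusted p = 0.0144), and BT1 had 67.1, 79.7 and 90.7 CPM in pdx3-3, against 130.3, 117 and 119 CPM in pdx3-4 and 20.9, 20.9 and 25.7 CPM in wild type (log2 fold change -0.62, SE 0.11, adjusted p = 0.0098). LBD38 had -0.53, NRT1.1 had -0.34 and BT2 had -0.92. NRT2.5, a high-affinity nitrate transporter induced by nitrogen starvation, was the higher one, with 1.75, 1.28 and 2.82 CPM in pdx3-3, against 0.138, 0.142 and 0.195 CPM in pdx3-4 and 0.0529, 0.048 and 0.0534 CPM in wild type (log2 fold change 3.58, SE 0.41, adjusted p = 0.000907). Its sums were 114 counts in pdx3-3, 10 in pdx3-4 and 3 in wild type. The lower count was 8 with DESeq2, with the 6 mutant libraries alone or without wild-type library 3, 3 without pdx3-3 library 1 or pdx3-4 library 1, 2 without pdx3-3 library 2, 1 without pdx3-4 library 3 and 0 with pdx3-3 library 3 alone, whereas NRT2.5 was called in all.

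Of 17 tested genes of ammonium uptake and assimilation, GDH2, a glutamate dehydrogenase, was lower, with 46.4, 44.4 and 46 CPM in pdx3-3 and 57.4, 55.3 and 66.2 CPM in pdx3-4 (log2 fold change -0.39, SE 0.09, adjusted p = 0.028), and none was higher. The called share of the list was 5.88%, against 6.21% of all tested genes. The call of GDH2 was lost without pdx3-3 library 1, 2 or 3 and without pdx3-4 library 1 or 3. The glutamine synthetase gene GS2 had 2006, 1787 and 1798 CPM in pdx3-3 and 1899, 1805 and 1864 CPM in pdx3-4 (log2 fold change 0.01, SE 0.08, adjusted p = 0.983), and the asparagine synthetase gene ASN1 had 48, 50.9 and 58.3 CPM in pdx3-3 and 60, 78.1 and 112 CPM in pdx3-4 (log2 fold change -0.66, SE 0.21, adjusted p = 0.097). DESeq2 called 3 members of the list higher, and edgeR called 2 higher with the replicate block, with the 6 mutant libraries alone or without wild-type library 3, and 1 with upper-quartile factors, without a filter on low counts or without pdx3-3 library 1.

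Glucosinolate genes, which make sulfur-rich defence compounds, were 5 higher and none lower of 23 tested (21.7% called, against 6.21% of all tested genes), with a median of 0.47. MYB51, the regulator of indole glucosinolates, had 111, 149 and 174 CPM in pdx3-3, against 52, 52 and 50.1 CPM in pdx3-4 and 9.68, 13.4 and 9.29 CPM in wild type (log2 fold change 1.49, SE 0.16, adjusted p = 0.000608). CYP83B1 and CYP79B2, enzymes of the indole branch, had 218, 228 and 228 CPM in pdx3-3 and 141, 143 and 136 CPM in pdx3-4 (log2 fold change 0.68, SE 0.09, adjusted p = 0.00205) and 35.9, 42.6 and 34.8 CPM in pdx3-3 and 22.4, 16.7 and 20.9 CPM in pdx3-4 (log2 fold change 0.92, SE 0.19, adjusted p = 0.0173). SOT16 and UGT74C1, of the later steps, had 0.67 and 0.57. The count was 12 without wild-type library 3, 11 with the 6 mutant libraries alone, 3 without pdx3-3 library 2 or pdx3-4 library 2, and 2 without pdx3-4 library 3 or with pdx3-3 library 3 alone.

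Energy deprivation genes, which are induced in the dark and by sugar starvation, were 5 lower and none higher of 11 tested, with a median of -0.45. Their called share was 45.5%, against 6.21% of all tested genes. DIN10, a raffinose synthase family gene, had 388, 508 and 601 CPM in pdx3-3, against 923, 899 and 1181 CPM in pdx3-4 and 105, 80.9 and 112 CPM in wild type (log2 fold change -1.0, SE 0.17, adjusted p = 0.007). TPS9 and TPS10, class II trehalose phosphate synthases, had 25.2, 28.5 and 37.6 CPM in pdx3-3 and 64.8, 59.7 and 61.9 CPM in pdx3-4 (log2 fold change -1.03, SE 0.13, adjusted p = 0.00192) and 49, 52.2 and 55.6 CPM in pdx3-3 and 90.7, 74.2 and 86.3 CPM in pdx3-4 (log2 fold change -0.68, SE 0.08, adjusted p = 0.00145). DRM2 and KMD4 had -0.86 and -0.45. In DIN10, TPS9 and TPS10 all libraries of pdx3-4 exceeded those of pdx3-3, and both alleles exceeded wild type. Leaving out pdx3-3 library 2 or pdx3-4 library 1 or 3 left 3 of the calls, and pdx3-3 library 3 alone left 1.

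Of 14 tested cell wall loosening genes, 3 were higher and 4 lower (50% called, against 6.21% of all tested genes). The called members of the 2 families went opposite ways with 1 exception. The alpha-expansins EXPA8 and EXPA1 were higher, EXPA8 with 74.7, 65 and 71.3 CPM in pdx3-3, against 39, 35.5 and 37.2 CPM in pdx3-4 and 175, 177 and 116 CPM in wild type (log2 fold change 0.92, SE 0.14, adjusted p = 0.00479). The xyloglucan enzymes XTH4, XTH15, XTH24 and XTH30 were lower, with log2 fold changes from -1.44 in XTH15 to -0.67 in XTH4, and XTH31 was higher (1.66). The expansins were below wild type in all libraries of both alleles, and less so in pdx3-3. The higher count was 1 without pdx3-4 library 2 or 3, the lower count was 2 without pdx3-3 library 1 and 0 without pdx3-3 library 2 or pdx3-4 library 3, and both were 0 with pdx3-3 library 3 alone.

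In the remaining lists few members were called. Called shares were 7.14% of phosphate, 8.33% of senescence and 8.7% of cold and abscisic acid genes, against 6.21% of all tested genes. They were 16.7% of flavonoid, 18.8% of clock and 18.8% of sulfur genes, and 2.78% of nuclear photosynthesis genes. Of the flavonoid genes, CHI was higher (0.45) and DFR and GSTF12 were lower, GSTF12 at -1.07; of 16 tested clock genes PRR9 was higher (0.75) and LHY and RVE4 were lower (-0.28 and -0.28). Apart from DFR, these calls were lost in at least 1 of the left-out libraries of each allele. SPX1, a repressor of phosphate responses, was the 1 of 14 phosphate genes called, with 23.3, 21.6 and 26.5 CPM in pdx3-3, against 12.3, 10.4 and 9.51 CPM in pdx3-4 and 18.5, 13.6 and 16.4 CPM in wild type (log2 fold change 1.15, SE 0.13, adjusted p = 0.000964). The sulfur genes APR3 and SDI2 were higher (0.49 and 0.58) and the transporter SULTR1;2 was lower (-0.90). Both higher sulfur calls were lost without pdx3-3 library 2, without pdx3-4 library 3 and with pdx3-3 library 3 alone, and SDI2 also without pdx3-3 library 1. SULTR1;2 lost its call in 9 of the 20 alternatives, among them library-size scaling and the omission of wild-type library 1 or 2, pdx3-3 library 1 or 3, or any pdx3-4 library. COR47, a dehydrin, was lower (-0.72), ABI1, a phosphatase of abscisic acid signalling, was higher (0.56), and WRKY6 was higher among senescence genes (0.74). COR47 was not called without pdx3-4 library 1 or 3, and WRKY6 was not called without pdx3-3 library 3 or pdx3-4 library 2 or 3. ABI1 lost its call in 8 alternatives, with the replicate block and without wild-type library 1, any single pdx3-3 library or pdx3-4 library 2 or 3. With pdx3-3 library 3 alone none of COR47, ABI1 and WRKY6 was called. Of 36 tested nuclear photosynthesis genes only RBCS2B, a Rubisco small subunit, was called by edgeR with all libraries, at -0.38. Its call was lost in 9 alternatives, with upper-quartile and library-size scaling, without wild-type library 1, pdx3-3 library 2 or 3 or any pdx3-4 library, and with pdx3-3 library 3 alone. DESeq2 called 1 photosynthesis gene higher. Other scalings also ended the calls of GSTF12, LHY and RVE4. With all libraries, no gene was called by edgeR among 13 photorespiration, 14 iron, 23 auxin and 22 cell division genes, of which 1, 1, 5 and 3 had an unadjusted p under 0.05; DESeq2 called 1 auxin gene and none of the others. In the edgeR alternatives, 1 iron gene was higher with the 6 mutant libraries alone and without wild-type library 1 or 3 or pdx3-3 library 1. Auxin genes were 2 higher and 3 lower without wild-type library 3 and 1 higher and 1 lower with the 6 mutant libraries alone, 1 was higher with upper-quartile or library-size scaling, and 1 was lower with the replicate block or without pdx3-3 library 1. Photorespiration and cell division genes were not called in any alternative.

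Markers of cell types were read in the same way, since in bulk rosettes a change in the number of cells of a type and a change in RNA per cell cannot be told apart. Guard cell and stomatal lineage markers were 3 lower and none higher of 17 tested (17.6% called, against 6.21% of all tested genes), with a median of -0.45. Their summed level was 3610 to 4040 CPM in pdx3-3, 4871 to 5983 CPM in pdx3-4 and 5495 to 7244 CPM in wild type. Those sums were mostly the myrosinases TGG1, with 2962, 2953 and 2728 CPM in pdx3-3 and 4216, 3365 and 4215 CPM in pdx3-4, and TGG2, with 1019, 963 and 826 CPM in pdx3-3 and 1598, 1438 and 1696 CPM in pdx3-4; OST1, a kinase of stomatal closure, had 9.95, 12.1 and 11.7 CPM in pdx3-3 and 16.6, 15.8 and 23.5 CPM in pdx3-4. All 3 calls were lost without pdx3-3 library 2 or 3, without pdx3-4 library 3 and with pdx3-3 library 3 alone, and 1 was left without pdx3-3 library 1. The 10 trichome markers had a median of -0.48, so a low median was not particular to the guard cell list. They summed to 76.2 to 83.7 CPM in pdx3-3, 88.3 to 99.6 CPM in pdx3-4 and 67.8 to 109 CPM in wild type, with none called by edgeR or DESeq2 over all libraries and 3 at an unadjusted p under 0.05. With edgeR, 3 trichome markers were called lower without wild-type library 3 and 2 with the 6 mutant libraries alone.

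Floral markers had 1 higher of 12 tested, SEP3, with 0.876, 1.33 and 1.74 CPM in pdx3-3 and 0.735, 0.284 and 0.439 CPM in pdx3-4 (log2 fold change 1.44, SE 0.36, adjusted p = 0.0429), and their 17 members summed to 83.2 to 99.6 CPM in pdx3-3 and 83 to 85.2 CPM in pdx3-4. Of 5 tested shoot meristem markers KNAT1, a homeobox gene of the meristem, was higher, with 3.56, 1.72 and 4 CPM in pdx3-3, against 0.965, 0.947 and 0.878 CPM in pdx3-4 and 0.37, 0.577 and 0.641 CPM in wild type (log2 fold change 1.72, SE 0.32, adjusted p = 0.0108); CLV3 was at 0 in the mutants. The SEP3 call was lost in 8 of the alternatives, and the KNAT1 call was lost without pdx3-4 library 3. Phloem and xylem markers had 1 lower of 12, SWEET11, a sucrose exporter (-0.57), a call lost without pdx3-3 library 1 or 2, without pdx3-4 library 2 or 3 and with pdx3-3 library 3 alone. Of 13 root markers 1 was tested and not called with all libraries, and 1 was called lower without pdx3-3 library 2 and with pdx3-3 library 3 alone. Of the 13, 5 were at 0 in the mutants, and the sums were 19.5 to 48.8 CPM in pdx3-3 and 38.8 to 60.1 CPM in pdx3-4. Floral markers and phloem and xylem markers each had 8.33% of tested members called and shoot meristem markers 20%, against 6.21% of all tested genes. The part of these marker levels in the other results was not tested.

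Of the 111 named genes, 7 had all pdx3-3 libraries on one side of all wild-type libraries and all pdx3-4 libraries on the other. Only named genes called between the alleles were searched, and the share over all tested genes was not counted. PRXCA, GASA1, AT2G41990, AFB5 and NIA2 were lower than wild type in pdx3-3 and higher in pdx3-4, and SPX1 and CYP83B1 were higher in pdx3-3 and lower in pdx3-4. GASA1 is the widest case, at 31.2 to 41.4 CPM in pdx3-3 and 91.7 to 121 CPM in pdx3-4, with wild type at 66.2 to 69.1 CPM. Comparisons of each allele with wild type share the wild-type libraries, so only the levels are given.

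**Figure D5:**
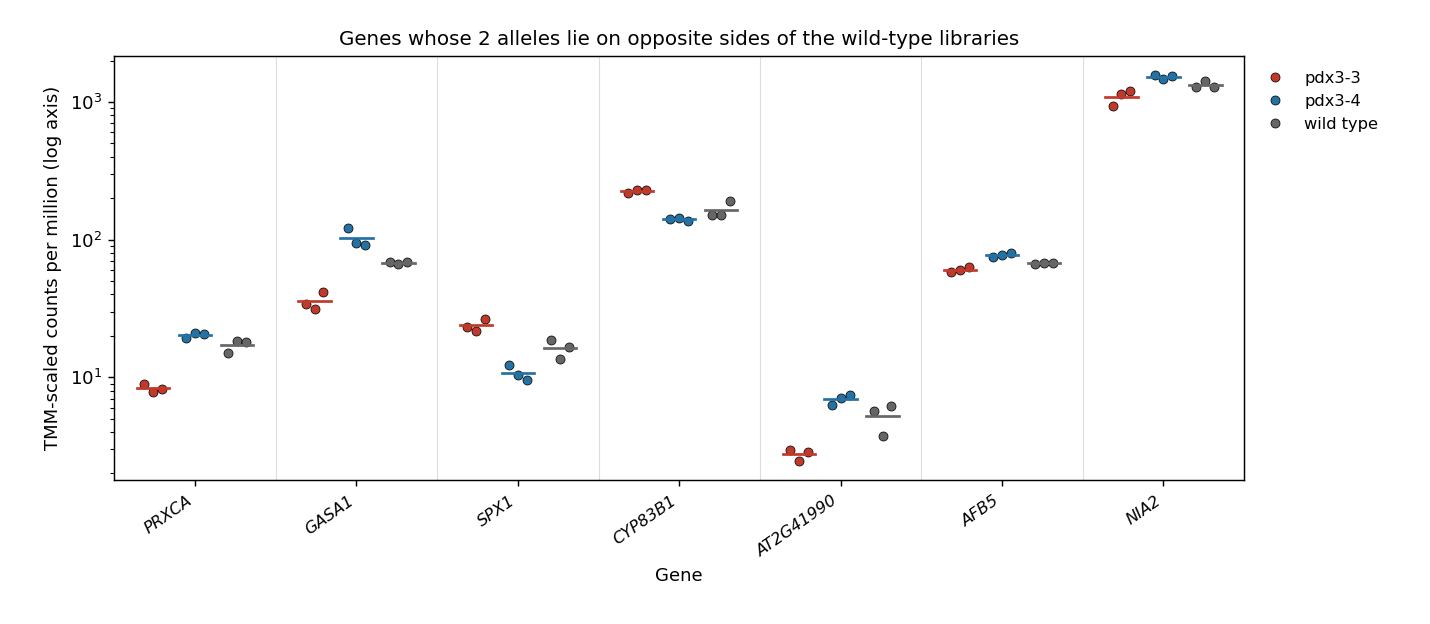
TMM-scaled CPM (log axis) of the 7 named genes whose alleles lie on opposite sides of wild type; each point is a library, pdx3-3 left, pdx3-4 in the middle and wild type right, with bars at the group mean. In GASA1 the pdx3-3 libraries reach at most 41.4 CPM, the pdx3-4 libraries are at 91.7 CPM or more, and wild type lies between.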

How the data were processed

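PolyA-selected mRNA of whole rosettes was sequenced in 9 libraries, 3 per genotype. Each deposited file gives raw whole-number counts by locus for 1 library. Per the submitters' processing notes, FastQC, TopHat2 (version 2) and the build TAIR10 were used; no source used here names the program that counted reads, whether it used strand, or what it did with reads matching several places. Per the labels' protocols a stranded TruSeq kit was used and the libraries were pooled for sequencing.

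Locus identifiers were matched to the TAIR10.1 annotation: 32831 of 33319 nuclear loci had an entry. The files held 0 columns of other series. Nuclear counts were filtered with filterByExpr (minimum count 10), normalized by TMM (factors between 0.95 and 1.02), and a quasi-likelihood model was fitted in edgeR 4.0.16 (R 4.3.3) to the 9 libraries together, with no term but genotype (6 residual degrees of freedom; biological coefficient of variation 0.102). P-values were adjusted by Benjamini-Hochberg over the 18711 tested genes. The SE is the log2 fold change over the square root of F. Replicates differed by more than counting noise (chi-square per degree of freedom 5.13 to 15.6) and were all kept as separate samples. Counting intervals and floors (3 counts per library) cover counting error only. With 3 against 3 libraries, an exact permutation test of a single gene cannot go below 0.10, so none is given. The pipeline was run on simulated counts with the same spread for every gene and no uneven libraries. That run checks the code and does not show how reliable the calls are in these libraries.

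Members, lists and tests were chosen with earlier results of these data known. The rule for the 111 named genes takes PDX3, the vitamin B6 list, the 15 largest folds and 5 smallest p-values called in each direction (for folds, at least 5 CPM in the higher allele and no overlap of libraries), up to 4 called members per list, and 3 tested genes on each side of PDX3. Alternatives were other scalings and filters, DESeq2 1.42.0, limma-voom (limma 3.58.1), organellar loci included, the mutant libraries alone, the replicate number as a block, and libraries left out.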

Additional observations from a re-analysis of the deposited data

Results flagged for a closer look

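Organellar and ribosomal loci were outside the comparison, and they took a larger share of the counts in 2 libraries of pdx3-3 than in any wild-type library. Chloroplast loci held 0.536% of the counts in pdx3-3 library 1 and 0.174% in library 2. Mitochondrial loci held 0.143% and 0.0524% in the same libraries, and rRNA loci 0.774% and 0.242%. The part of these shares in the nuclear results was not tested, and the counts with pdx3-3 library 3 alone stand beside the results.

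For 7 of the 111 named genes, all libraries of the alleles lay on opposite sides of all wild-type libraries. The search took only named genes called between the alleles, so 7 is not a total over the tested genes. The log2 fold changes of pdx3-3 over pdx3-4 were -1.52 for GASA1, -1.33 for AT2G41990, -1.28 for PRXCA, -0.472 for NIA2 and -0.358 for AFB5, which were below wild type in pdx3-3 and above it in pdx3-4. They were 1.15 for SPX1 and 0.678 for CYP83B1, which were above wild type in pdx3-3 and below it in pdx3-4. The difference between the alleles passed edgeR's quasi-likelihood test in each, as the search required, while their position against wild type is a description.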

How the results depend on the processing

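Over the 20 alternatives, no called named gene changed direction, and PDX3 was called in each, at log2 fold changes from -2.395 to -2.192 when 1 library was left out and -2.097 with pdx3-3 library 3 alone. Other scalings, filters and tools kept the count of calls within 1.5 times 1162; their median log2 fold change over all genes stayed between -0.011 and 0.00661. With the 6 mutant libraries alone, 946 genes were higher. Leaving out single libraries gave 418 to 1826 calls, 262 to 991 higher and 156 to 835 lower, and 39 to 145 called list members. With pdx3-3 library 3 alone there were 361 calls, 321 higher and 40 lower, and 45 list members; this alternative has fewer samples. Of the 1162 genes, 300 were called there and 413 without pdx3-4 library 3. Same-numbered libraries of different genotypes correlated at -0.148 to 0.353 in their deviations, and differently numbered ones at -0.315 to 0.319. With 3 libraries per genotype, these values cannot show whether the replicate number marks a shared batch. With the replicate number as a block, 1042 genes were called (568 higher, 474 lower), with 100 list members and PDX3 at -2.28 (edgeR adjusted p = 0.000155). Uncalled values near 0 changed sign: PDX2 was 0.0009016 with median-of-ratios size factors, 0.0008051 with DESeq2 and -0.05054 to 0.03133 with 1 library left out, PLR1 was -0.0009759 with upper-quartile factors, -0.02593 with pdx3-3 library 3 alone and -0.0333 to 0.0273 with 1 library left out, and AT5G49950 was -0.01957 to 0.1174 with 1 library left out. Depth limits genes of few counts, such as NRT2.5 and SEP3.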
